A study of Homo sapiens with 7 samples.

Results

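The S100 genes of chromosome 1q21 encode small calcium-binding proteins, and 10 of them (S100A2, S100A4, S100A6, S100A8, S100A9, S100A10, S100A11, S100A12, S100A13 and S100A16) were examined in Kasumi-1 cells for the positions of H3K4me3 and of 4 proteins, AML1-ETO, AML1, p300 and N-CoR. The 10 genes were chosen by family and position, with earlier results of these data known, out of 20162 protein-coding genes of the nuclear chromosomes in GENCODE release 44 on GRCh37 (hg19). A peak was counted for a gene when its summit, the position of highest enrichment, lay in the gene body or within 5 kb of either end. Kasumi-1 is an established myeloid leukemia cell line with the t(8;21) translocation, grown untreated. The translocation makes AML1-ETO, a fusion of the DNA-binding Runt domain of AML1 (RUNX1) with most of ETO (RUNX1T1), and the antibody used for AML1 recognizes a C-terminal part that the fusion lacks. N-CoR is a co-repressor, p300 is a histone acetyltransferase and co-activator, and H3K4me3 is a histone modification found at starts of active transcription. All libraries came from this single line, so the values below describe 1 cell line and no normal blood cell was compared.

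In ChIP-seq, DNA fragments held by a protein or a modified histone are pulled down with an antibody and sequenced. For each antibody 2 biological replicates were pooled before peaks were called, and 1 list of summits was deposited, with 19632 peaks for H3K4me3, 18087 for AML1-ETO, 11692 for AML1, 11020 for p300 and 10004 for N-CoR. With 1 list for each antibody there is no spread between replicates, no test between lists was possible, and the counts are given as descriptions. The lists hold no read counts or peak heights, so the depth behind a single peak is unknown and a missing peak means only that none passed the calling threshold. The peak names of the N-CoR list begin with "eto" and those of the p300 and H3K4me3 lists with "aml1", although the lists are different. Of the windows, 92 were identical between N-CoR and AML1-ETO, 38 between p300 and AML1, and 0 between H3K4me3 and AML1. The cell label was checked against marker genes, and 8 of 8 myeloid and progenitor markers (MPO, CD33, CD34, KIT, SPI1, PTPRC, CSF3R and ELANE) had H3K4me3 within 1000 bp of a start. The same rule found an H3K4me3 summit at 62.3% of all protein-coding genes. Of 3 T cell markers 1 (CD8A) had such a summit, and all 3 keratinocyte markers (KRT5, KRT14 and TP63) lacked it, as did both liver and both muscle markers.

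S100 proteins carry a pair of EF-hand calcium-binding loops, form dimers, and change shape on binding calcium so that they can dock on target proteins. S100A8 and S100A9 together form calprotectin, an abundant protein complex of neutrophils and monocytes, and with S100A12 they act as alarmins that signal through receptors such as RAGE and TLR4 once released. Most other members act inside the cell on the cytoskeleton, on annexins and on membranes. In the chromosome, the S100 genes flank a long interval of genes for the cornified envelope of skin, which together form the epidermal differentiation complex.

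The sequences under 5 of the sites are shown because they carry the main contrasts among the members: the site with all 4 proteins, the site with AML1, AML1-ETO and N-CoR, the site of the alarmin genes, and the 2 sites of the members that hold the Runx letters. Each is the GRCh37 reference on the plus strand, 5′ to 3′, over the merged 100 bp windows of the summits. Capitals mark TGTGGT (Runx), GAGGAA (PU.1), AGGAAG (ETS) or TTGCNNAA (C/EBP) on either strand. AGGAAG overlaps GAGGAA where the letters read GAGGAAG.
S100A11 upstream, all 4 proteins, chr1:152020633-152020809: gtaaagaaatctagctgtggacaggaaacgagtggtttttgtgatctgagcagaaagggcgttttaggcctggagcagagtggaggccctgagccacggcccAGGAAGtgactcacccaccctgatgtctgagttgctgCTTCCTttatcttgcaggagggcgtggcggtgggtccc
S100A4 start, AML1 with AML1-ETO and N-CoR, chr1:153518295-153518455: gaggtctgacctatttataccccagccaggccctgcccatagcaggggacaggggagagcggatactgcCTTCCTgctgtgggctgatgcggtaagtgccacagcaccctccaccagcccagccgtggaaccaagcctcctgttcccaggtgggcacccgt
S100A8 downstream, AML1 with AML1-ETO, chr1:153359059-153359173: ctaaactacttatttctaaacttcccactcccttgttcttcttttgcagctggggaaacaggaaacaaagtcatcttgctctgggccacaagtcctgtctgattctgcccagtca
S100A10 intron, AML1-ETO, chr1:151956823-151956922: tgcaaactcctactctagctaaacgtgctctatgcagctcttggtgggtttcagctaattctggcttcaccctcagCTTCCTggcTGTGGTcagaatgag
S100A11 inner start, AML1-ETO, chr1:152009502-152009601: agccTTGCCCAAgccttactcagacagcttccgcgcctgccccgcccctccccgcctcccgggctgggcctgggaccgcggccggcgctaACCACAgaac

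AML1-ETO was the protein found at most members. Of the 10 genes, 6 had an AML1-ETO summit within 5 kb, 4 had N-CoR, 3 had AML1 and 3 had p300, while 5 had H3K4me3. Among all protein-coding genes the same rule found AML1-ETO at 41.4%, N-CoR at 26.7%, AML1 at 34.9%, p300 at 45.5% and H3K4me3 at 68%. With 10 genes, of which neighbours can share a peak, a single gene moves these shares a long way, and they are set side by side as a description. The members are also short, with a median length of 6.39 kb against 27.2 kb for protein-coding genes, so their windows were narrower. Within 1000 bp of a start the members numbered 4 for AML1-ETO, 3 for N-CoR, 2 for AML1, 2 for p300 and 5 for H3K4me3, beside 23.3%, 13.3%, 18.6%, 37% and 62.3% of protein-coding genes. S100A4 and S100A11 had all 5 lists within 5 kb, as did 14.5% of protein-coding genes. S100A9, S100A12 and S100A16 had none of the 4 proteins and no H3K4me3, and 38.5% of protein-coding genes had none of the 4 proteins.

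**Figure D1:**
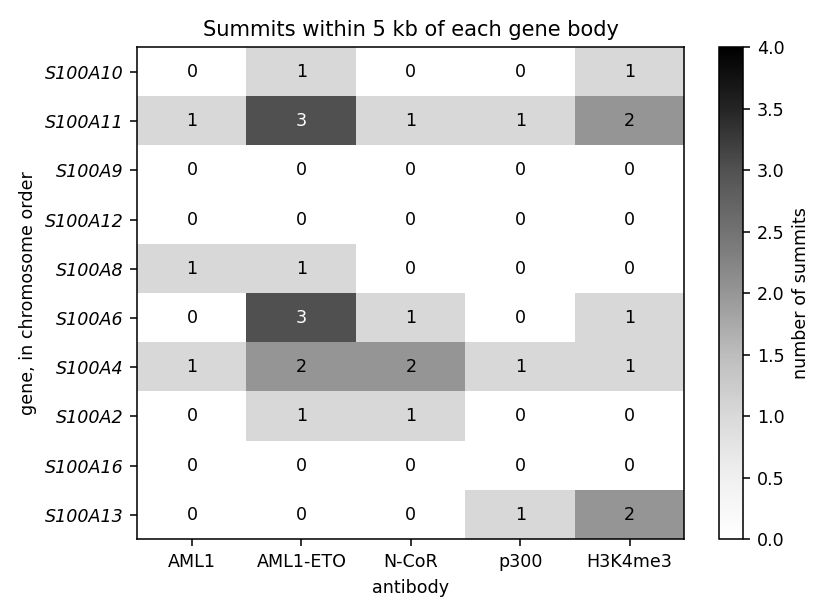
Number of summits of each antibody (columns) within 5 kb of each of the 10 S100 genes (rows, in chromosome order), with the number printed in each cell and a grey scale from 0 to 4. S100A11 and S100A4 have summits of all 5 lists, and S100A9, S100A12 and S100A16 have none.

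**Figure D2:**
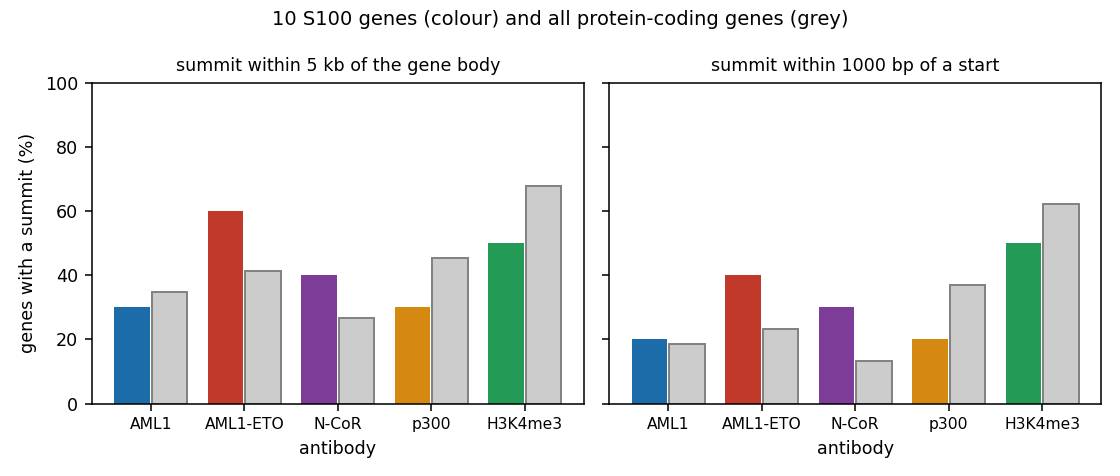
Percent of the 10 S100 genes (coloured bars) and of all protein-coding genes (grey bars) with a summit of each antibody, within 5 kb of the gene body (left) and within 1000 bp of a start (right); bars start at 0 and have no error because there is 1 list for each antibody. The coloured bar stands above the grey one for AML1-ETO and N-CoR and below it for p300 and H3K4me3 in both panels.

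The alarmin genes lay together and were far from any H3K4me3 summit. S100A9 (ENSG00000163220, chr1:153330330-153333499, plus strand), S100A12 (ENSG00000163221, chr1:153346187-153348097, minus strand) and S100A8 (ENSG00000143546, chr1:153362508-153363549, minus strand) follow one another over a short stretch. The nearest H3K4me3 summit stood 178 kb from the start of S100A9, 160 kb from that of S100A12 and 145 kb from that of S100A8, and in each case it was the summit at S100A6. Neighbouring genes were also far from this summit, which was their nearest too. The distances were 223 kb for PGLYRP3, 187 kb for PGLYRP4, 118 kb for S100A7A, 97.6 kb for S100A7L2 and 75.2 kb for S100A7. The trait was therefore not particular to the alarmin genes. A distance of over 100 kb, a limit set after these values were seen, was found for 3 of the 10 members and for 13.8% of protein-coding genes. S100A8 had 1 AML1 and 1 AML1-ETO summit and no N-CoR, p300 or H3K4me3 summit within 5 kb. These 2 summits, at 153359109 for AML1 and 153359124 for AML1-ETO, stood 15 bp apart in intergenic sequence, and the centre of their merged site lay 4336 bp downstream of the nearest S100A8 start, past the end of the gene. From that site the nearest N-CoR summit was 154293 bp away, the nearest p300 summit 158610 bp and the nearest H3K4me3 summit 149245 bp. The same pair of summits was also the nearest to S100A12, at 11 kb from its start. At S100A9 the nearest AML1 and AML1-ETO summits were a different pair, 17.9 kb upstream of its start in an intron of PGLYRP4, a peptidoglycan recognition protein gene. The nearest N-CoR summit to S100A9 stood 126 kb away and the nearest p300 summit 187 kb away. Of the 3 alarmin genes, then, S100A8 alone had a protein within 5 kb, and its neighbouring site held AML1 and the fusion without a called co-regulator.

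S100A11 (ENSG00000163191, chr1:152004982-152020383, minus strand), which partners annexin A1 at membranes, had the most summits of the members. Within 5 kb there were 3 AML1-ETO, 2 H3K4me3, 1 AML1, 1 N-CoR and 1 p300 summits. The 4 proteins met at a site whose centre lay 338 bp upstream of the outer start of the gene. The summits of AML1-ETO (152020725) and N-CoR (152020723) stood 2 bp apart, p300 (152020760) was 35 bp from AML1-ETO, and AML1 (152020683) was 42 bp from it, so the 4 summits spread over 77 bp. An H3K4me3 summit at 152020173 lay 548 bp from the centre of this site and 210 bp inside the gene. The remaining AML1-ETO summits fell in an intron that is also an intron of the noncoding gene ENSG00000229021. The first of these, at 152009552, was 72 bp upstream of an annotated inner start of S100A11 at 152009480 and had an H3K4me3 summit 475 bp from its centre. The other, at 152010919, had its centre 1438 bp upstream of the same start and 1842 bp from H3K4me3. Neither had an AML1, N-CoR or p300 window overlapping it, so within this gene the fusion was called with AML1 and both co-regulators at the outer start and alone at the inner start.

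S100A4 (ENSG00000196154, chr1:153516089-153522612, minus strand), which binds non-muscle myosin, had 2 AML1-ETO, 2 N-CoR, 1 AML1, 1 p300 and 1 H3K4me3 summits within 5 kb. AML1 (153518406), AML1-ETO (153518371) and N-CoR (153518345) shared a site centred 93 bp upstream of an annotated start at 153518282, in an intron of longer transcripts. There AML1-ETO stood 26 bp from N-CoR and 35 bp from AML1. The p300 summit at 153517726 formed a separate site, 649 bp from the centre of the former and 153 bp upstream of a further annotated start at 153517573. The H3K4me3 summit at 153518051 lay between them, 324 bp from the centre of the AML1, AML1-ETO and N-CoR site and 326 bp from that of p300. S100A4 and S100A11 were the members with all 4 proteins within 5 kb, which 15.4% of protein-coding genes had. In S100A11 their windows merged into 1 site, and in S100A4 the p300 window was apart.

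S100A6 (ENSG00000197956, chr1:153507075-153508720, minus strand), also called calcyclin, had 3 AML1-ETO, 1 N-CoR and 1 H3K4me3 summits and no AML1 or p300 summit within 5 kb. One AML1-ETO summit, at 153508670, fell in the first exon 21 bp inside an annotated start, and the H3K4me3 summit at 153508361 was 308 bp from the centre of that site. A further AML1-ETO summit, at 153505729, lay beyond the 3′ end of the gene. The third AML1-ETO summit (153513467) and the N-CoR summit (153513409) stood 58 bp apart at the start of the neighbouring gene S100A5, within 5 kb of S100A6 and also of S100A4. These 2 summits were therefore counted for both members. The S100A5 site was 4614 bp from the nearest H3K4me3 summit.

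S100A2 (ENSG00000196754, chr1:153533584-153540366, minus strand), best known in epithelial cells, had 1 AML1-ETO and 1 N-CoR summit and none of AML1, p300 or H3K4me3. The AML1-ETO summit (153539191) was 40 bp and the N-CoR summit (153539135) 96 bp inside an annotated start at 153539231, and they stood 56 bp apart. The nearest H3K4me3 summit was 21111 bp from the centre of this site. S100A2 was the single member with a protein within 1000 bp of a start and no H3K4me3 there.

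S100A10 (ENSG00000197747, chr1:151955391-151966335, minus strand), the partner of annexin A2, had 1 AML1-ETO and 1 H3K4me3 summit. They were far apart, since H3K4me3 (151966057) lay 243 bp inside a start whereas AML1-ETO (151956873) lay in an intron 8181 bp from the nearest start. S100A13 (ENSG00000189171, chr1:153591263-153603836, minus strand), which takes part in the release of FGF1, had 1 p300 and 2 H3K4me3 summits and no AML1, AML1-ETO or N-CoR summit. One H3K4me3 summit (153599687) was 57 bp from a start of S100A13. The p300 summit (153606714) and the second H3K4me3 summit (153606723) fell at the start of the neighbouring gene CHTOP, 2878 bp upstream of S100A13 for p300. S100A16 (ENSG00000188643, chr1:153579362-153585621, minus strand) had no summit of any list within 5 kb. Its nearest AML1-ETO summit was 6.83 kb from a start, N-CoR 9.23 kb, AML1 9.24 kb, H3K4me3 14.1 kb and p300 21.1 kb.

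**Figure D3:**
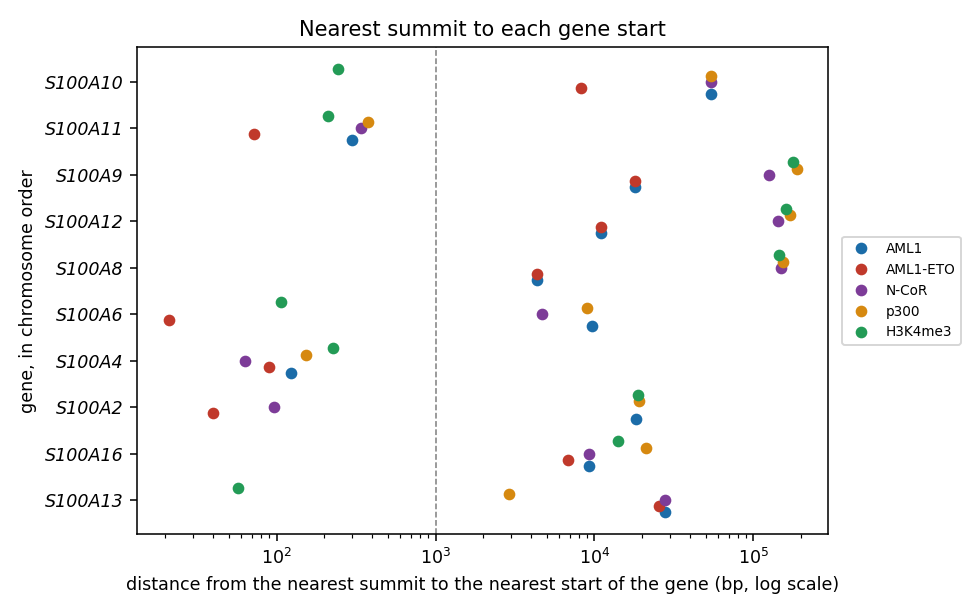
Distance in bp (log scale) from the nearest annotated start of each S100 gene (rows, in chromosome order) to the nearest summit of each antibody (coloured points, set apart vertically to be seen); the dashed line marks 1000 bp. H3K4me3 points lie left of the line for S100A4, S100A6, S100A10, S100A11 and S100A13, and over 100 kb away for S100A8, S100A9 and S100A12.

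H3K4me3 summits within 1000 bp of a start were thus present at S100A4 (227 bp), S100A6 (106 bp), S100A10 (243 bp), S100A11 (210 bp) and S100A13 (57 bp), where the distance is to the nearest annotated start. Of these 5 genes, S100A4, S100A6 and S100A11 also had AML1-ETO within 1000 bp of a start, S100A10 had it farther inside the gene, and the nearest to S100A13 was 25.6 kb from a start. Of the 5 members without H3K4me3, S100A2 and S100A8 had AML1-ETO within 5 kb and S100A9, S100A12 and S100A16 did not. The fusion was called at S100 genes with and without this mark. No share of all protein-coding genes is set beside these counts. Genes with the mark were described by 1000 bp and those without it by 5 kb, so no difference between them is drawn.

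Merging the windows of the 4 proteins gave 12 separate sites in the members' windows, out of 29442 in the genome. AML1-ETO was at 10 of the 12 (83.3%, against 61.4% of all sites), N-CoR at 4 (33.3% against 34%), AML1 at 3 (25% against 39.7%) and p300 at 3 (25% against 37.4%). All 4 N-CoR windows and all 3 AML1 windows overlapped AML1-ETO, whereas p300 overlapped it at 1 of its 3 sites. In the genome, AML1-ETO was at 7119 of the 10003 sites with N-CoR and at 8407 of the 11686 sites with AML1. The matching count for p300 is not given here. As shares of all 29442 sites, N-CoR without any other protein made up 5.97% and AML1 alone 8.09%. AML1-ETO was alone at 5 sites (41.7% against 23.6%), together with N-CoR only at 2 (16.7% against 4.44%), and with AML1 only at 1 (8.33% against 9.98%). The 2 sites of AML1-ETO with N-CoR only, at the starts of S100A5 and S100A2, have summits 58 bp and 56 bp apart, and with summits extended by 25 bp in place of 50 bp they separated and 0 of 14 sites were of this kind, against 4.02% of all sites. A further site had AML1, AML1-ETO and N-CoR (8.33% against 9.48%), 1 had all 4 proteins (8.33% against 7.76%), and p300 stood alone at 2 (16.7% against 19.4%). H3K4me3 had a summit within 1000 bp of 6 of the 12 site centres (50% against 42.2%). With 12 sites that neighbour each other, a difference in share of this kind rests on a few sites.

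The letters of the Runx consensus TGTGGT, within 50 bp of the centre on either strand, were present at 2 of the 12 sites (16.7%), and over all sites at 24.2% (exact Clopper-Pearson 95% interval 23.7 to 24.7). They were in the intron of S100A10 and at the inner start of S100A11, and both are sites of AML1-ETO alone. The sites of S100A11, S100A4 and S100A8 at which AML1 was called with AML1-ETO hold no TGTGGT in the sequences printed above. Counting TGCGGT as well, on either strand, gave 3 of the 12 sites (25%, against 30.9% of all sites, interval 30.4 to 31.4), and the added site is the start site of S100A4, where AML1, AML1-ETO and N-CoR were called. Over the whole lists, TGTGGT was found in 40.7% of AML1 windows (interval 39.8 to 41.6) and 31.5% of AML1-ETO windows (30.8 to 32.2), so most windows of either list lack these letters. The ETS letters AGGAAG were present at 5 of the 12 sites (41.7%, against 33.3% of all sites, interval 32.8 to 33.9), among them the upstream site of S100A11 and the start site of S100A4. GAGGAA was present at 1 site (8.33% against 23.2%, interval 22.7 to 23.7), at the start of S100A5. TTGCNNAA was present at 1 (8.33% against 7.54%, interval 7.24 to 7.85), at the inner start of S100A11. These intervals cover counting error over windows only.

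Over the whole cluster, from S100A10 to S100A1 (chr1:151955391-153604515, 1.65 Mb with 63 protein-coding genes), the lists placed 16 AML1-ETO, 8 H3K4me3, 7 AML1, 6 N-CoR and 2 p300 summits. As summits per Mb this was 9.7 for AML1-ETO against 5.843 over the nuclear genome, 4.85 for H3K4me3 against 6.341, 4.24 for AML1 against 3.775, 3.64 for N-CoR against 3.231, and 1.21 for p300 against 3.56. The genome values divide by the full reference length of 3095.68 Mb, unsequenced gaps included, which makes them lower than over sequenced DNA alone. Within the cluster the summits were not spread evenly. S100A10 and S100A11, with 5 kb past S100A11, take up 69.99 kb and held 4 AML1-ETO, 3 H3K4me3, 1 AML1, 1 N-CoR and 1 p300 summits. The block from 5 kb before S100A9 to the end of S100A1 takes up 279.2 kb with 14 protein-coding genes, and held 8 AML1-ETO, 4 N-CoR, 3 AML1, 3 H3K4me3 and 1 p300 summits. The interval between, 1.3 Mb with 47 protein-coding genes, held 4 AML1-ETO, 3 AML1, 2 H3K4me3, 1 N-CoR and 0 p300 summits. In AML1-ETO summits per Mb the 3 stretches had 57.1, 28.7 and 3.08, in the order given here.

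**Figure D4:**
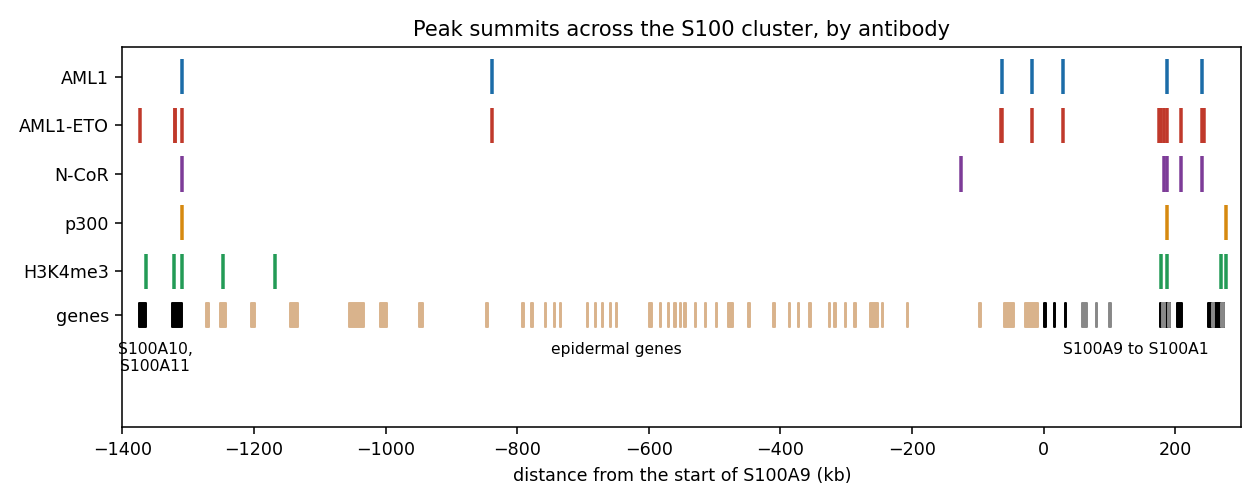
Positions of the summits of each antibody (coloured ticks, 1 row each) and of the genes (bottom row; black for the 10 S100 genes, grey for other S100 genes, tan for epidermal genes), in kb from the start of S100A9. Ticks gather near S100A10 and S100A11 on the left and near S100A6 to S100A1 on the right, and few fall over the epidermal genes between.

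Among 43 genes of the epidermal interval (cornified envelope genes, the LCE and SPRR families, the S100-fused proteins such as FLG, and PGLYRP3 and PGLYRP4), 2 had AML1 and AML1-ETO within 5 kb, and none had N-CoR or p300. They were PGLYRP3, with 1 AML1 and 2 AML1-ETO summits, and PGLYRP4, with 1 of each. CRCT1, a gene of the interval outside this list and named after its values were seen, also had 1 of each. Over all 47 protein-coding genes of the interval, 3 (6.38%) had AML1 and 3 (6.38%) had AML1-ETO, against 34.9% and 41.4% of protein-coding genes in the genome. None of the 47 had N-CoR (26.7% in the genome) or p300 (45.5%). The listed genes are short, with a median length of 1734 bp. H3K4me3 was near 1 gene, TCHH (trichohyalin, named after its value was seen), in the coding sequence and not within 1000 bp of a start, which made 1 of the 47 genes (2.13%, against 68% of protein-coding genes). The widest stretch of the cluster without a summit of any list was 712 kb and covered 35 protein-coding genes, all in the epidermal interval. Within the S100 genes the widest was 147 kb, from the site downstream of S100A8 to the site past the end of S100A6, and it held the 3 protein-coding genes S100A8, S100A7A and S100A7.

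The 21 S100 genes of the annotation that were listed, the members among them, can be set side by side. S100A5 had 4 AML1-ETO, 2 N-CoR, 2 H3K4me3, 1 AML1 and 1 p300 summits within 5 kb, many of them shared with S100A4 and S100A6, and S100A3 had 1 of each list. With S100A4 and S100A11 these were the 4 genes of the cluster with at least 3 of the proteins within 5 kb. S100A1 had 1 p300 and 2 H3K4me3 summits, and S100A7, S100A7A, S100A7L2 (annotated as a pseudogene) and S100A14 had none. By the sum of differences in summit number over the 5 lists, S100A13 was the same as its neighbour S100A1 (0), S100A4 was nearest to S100A3 (2) and S100A11 to S100A5 (2). S100A13 and S100A1, and S100A4 and S100A3, overlap or adjoin, so they largely share their summits.

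**Figure D5:**
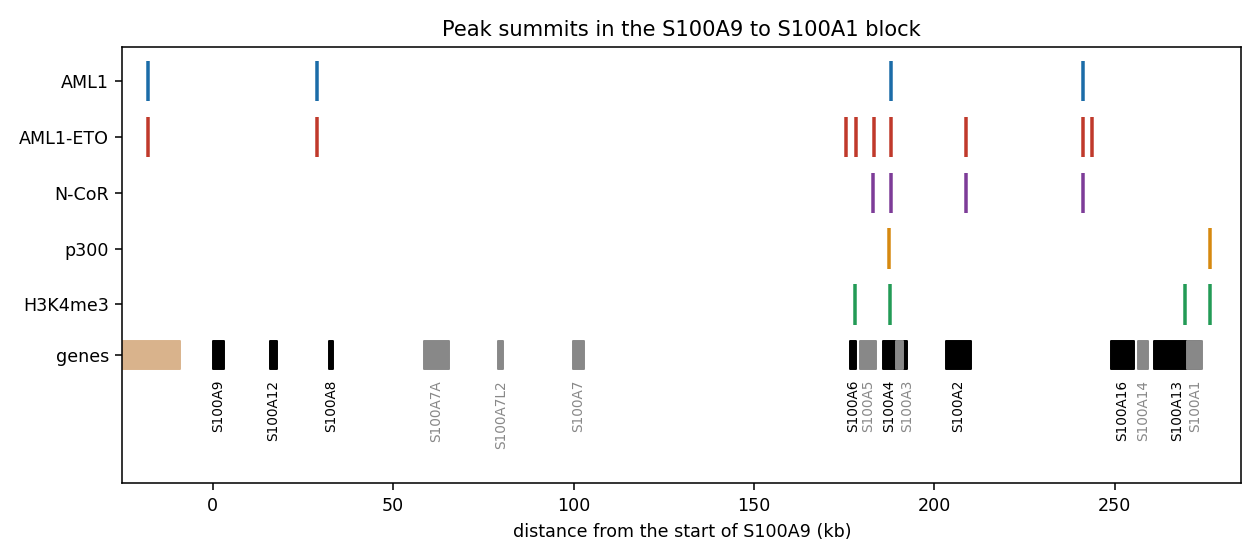
Summits of each antibody (coloured ticks, 1 row each) over the S100A9 to S100A1 block, in kb from the start of S100A9, with gene bodies below (black for the 10 S100 genes, grey for other S100 genes, tan for an epidermal gene). AML1 and AML1-ETO stand together near S100A8, whereas summits of all 5 lists gather around S100A4. Near S100A6 stand summits of AML1-ETO, N-CoR and H3K4me3.

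Between S100A2 and S100A16, outside the windows of the 10 genes, a further site held AML1 (153571560), AML1-ETO (153571569) and N-CoR (153571564) with all 3 summits within 9 bp. It was singled out after its values were seen. It lay in an intron of the noncoding gene ENSG00000285867 at chr1:153571510-153571618, 9234 bp downstream of the nearest S100A16 start and 28123 bp from the nearest H3K4me3 summit. An AML1-ETO summit without the other proteins stood 6.83 kb from that start.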

How the data were processed

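The 10 genes, the other gene lists and the rules were chosen with earlier results of these data known. The authors aligned the reads to GRCh37 (hg19) with Bowtie 0.12.8, allowing 2 mismatches, after base calling with CASAVA 1.6, combined 2 replicates per antibody and ran MACS2 2.0.10.20131216 for peaks at p < 1e-20. The deposited lists give, per peak, a 100 bp interval around the summit and a numbered name. The meaning of the numbering is not given in the sources used here. Names of 3 lists carry the prefix of another antibody, but their numbers of peaks equal those the authors report under the labels used here.

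Summits were counted from 1 and placed on GENCODE release 44 lifted to GRCh37 (64440 genes on nuclear chromosomes). Windows of the 4 proteins that shared at least 1 bp were merged into sites, and an H3K4me3 summit within 1000 bp of a site's centre counted as near. The members were always named, the other S100 genes were given with their counts, and up to 6 epidermal or partner genes with AML1-ETO were named. BSG was named in addition, as a listed receptor gene. Counting was tested on simulated data. Python 3.11.15, pysam 0.24.0, SciPy 1.17.1 and matplotlib 3.10.9 were used. Libraries of H3K27me3 and of input DNA were not used here. Some of the marker genes are not reported here.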

Additional observations from a re-analysis of the deposited data

How the results depend on the processing

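Because replicates were pooled by the authors, no replicate could be left out, and a stricter peak threshold was not run because the lists hold no score. No paired analysis was possible because the result comes from no test. Of 39 alternatives to the counts, 28 stayed within 1.5 times the first value and 11 did not. With a window of 10 kb in place of 5 kb, AML1 was near 5 members, not 3. With summits extended by 25 bp in place of 50 bp, 2 sites, not 4, had AML1-ETO with N-CoR, and 0, not 2, had them without another protein (an alternative chosen after seeing the data). Keeping the peaks numbered up to the midpoint of each list left members with a summit at 2 for H3K4me3, 2 for N-CoR and 0 for p300. Over the whole cluster it left 7 AML1-ETO, 3 AML1, 3 N-CoR, 1 H3K4me3 and 0 p300 summits, since fewer peaks enter. With all 64440 annotated genes in place of protein-coding ones, the share with a summit within 5 kb was 33.3% for H3K4me3, 22.0% for AML1-ETO, 22.0% for p300, 17.8% for AML1 and 13.7% for N-CoR.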

Other observations

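Of the 4 S100 genes listed from other chromosomes, 3 had all 4 proteins within 5 kb, as did 15.4% of protein-coding genes, and S100Z is 71.7 kb long. S100P, on chromosome 4, had 3 AML1-ETO, 3 AML1, 3 N-CoR, 1 p300 and 1 H3K4me3 summits within 5 kb, with the nearest AML1-ETO summit 897 bp from its start. S100B, on chromosome 21, had 1 summit of each of the 4 proteins and no H3K4me3, and its AML1 (1037 bp), AML1-ETO (1044 bp), N-CoR (1037 bp) and p300 (1048 bp) summits stood together upstream of its start. S100Z, on chromosome 5, had 2 p300, 1 AML1-ETO, 1 AML1, 1 N-CoR and 1 H3K4me3 summits, with p300 48 bp and AML1-ETO 6079 bp from the start. S100G, on chromosome X, had no summit of any list.

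Of 13 genes for receptors and partners of S100 proteins, 8 had AML1-ETO within 5 kb (41.4% of protein-coding genes did), 8 had p300 (45.5%), 7 had N-CoR (26.7%), 7 had H3K4me3 (68%) and 6 had AML1 (34.9%). Their median length was 54684 bp, against 27.2 kb for protein-coding genes. The first of them in genome order with AML1-ETO were CACYBP (1 AML1-ETO summit), FGF1 (1), CD36 (3), ANXA1 (2), ANXA11 (4) and AHNAK (4). ANXA1, which encodes the annexin that binds S100A11, had 2 AML1-ETO summits and none of AML1, N-CoR, p300 or H3K4me3. The genes listed as receptors were AGER, TLR4, CD36 and BSG. AGER, which encodes RAGE, had 2 H3K4me3, 1 N-CoR and 1 p300 summits within 5 kb, none of them within 1000 bp of a start. It had no AML1 or AML1-ETO summit. CD36 had 3 AML1-ETO, 2 N-CoR and 1 AML1 summits and none of p300 or H3K4me3. BSG had 4 H3K4me3, 2 AML1-ETO, 2 AML1, 2 p300 and 1 N-CoR summits. TLR4 had no summit of any list, and neither did SYT1. AGER, TLR4, SYT1 and BSG were named after their values were seen.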
